A study of Mus musculus with 12 samples.

Results

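The clonotypes described here were found in every wt and every Il15° mouse but not in every Il2° mouse. A clonotype is a combination of a TRAV segment, a CDR3 amino acid sequence and a TRAJ segment of the T cell receptor (TCR) α chain, and it is called public in a genotype when all 4 mice of that genotype hold it. The members were selected on measured detection: at least 1 count in all 4 wt and all 4 Il15° libraries, and none in at least 1 of the 4 Il2° libraries. Of 22578 clonotypes in the 12 libraries, 70 met this rule, and 1 of them was missing from all 4 Il2° libraries. They made up 28.2% of the 248 clonotypes public in both wt and Il15°, and the other 178 were public in all 3 genotypes.

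The libraries were made from newly developed thymic regulatory T lymphocytes (Treg), sorted as CD4+CD8-Thy1.1+GFP+ cells from individual mice aged 3 weeks, 100000 cells per mouse. All mice were on the B6 background and carried Rag2-Gfp, whose GFP marks cells that recently rearranged their receptor genes, Foxp3-Thy1a, whose Thy1.1 reports the Treg transcription factor Foxp3, the Kaa Tcrb transgene, and a Tcra+/null genotype. The groups differed only in that wt mice had both cytokine genes, Il2° mice lacked Il2 and Il15° mice lacked Il15, with 4 mice in each group. The controls therefore also had a fixed TCRβ chain and a single functional Tcra allele, so the repertoire is that of α chains paired with 1 β chain. The labelled cell type could not be checked against Foxp3 or other Treg genes, since α chain transcripts alone were sequenced.

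The α chain gene is assembled in the thymus by joining a V segment to a J segment. The junction encodes the CDR3 loop, which touches the presented peptide, and bases can be trimmed from the segment ends or added between them without a template. Junctions that need few added bases arise often and recur in many individuals, which is a known property of public clonotypes. IL-2 and IL-15 signal through receptors with a common β and a common γ chain, and IL-2 is known as the main growth factor of Treg, whereas IL-15 is best known for memory T and NK cells.

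A few CDR3 sequences are shown because the results below turn on them: the member missing from all Il2° mice, the member with the highest wt share, a pair that differs by a single residue, the TRAJ34 members with a shared 3′ part, a TRAJ17 member with a high Il2° count in 1 mouse and the member with the largest difference between Il15° and wt. Each is the nucleotide sequence with the most counts in the wt and Il15° libraries, written 5′ to 3′ from the deposited tables. Capitals mark bases assigned to neither the V nor the J segment, and a sequence with no capitals had none.
TRAV7-4 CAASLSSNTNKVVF TRAJ34: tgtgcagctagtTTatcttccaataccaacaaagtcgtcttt
TRAV7-4 TRAJ34, second member: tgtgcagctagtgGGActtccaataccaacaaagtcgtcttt
TRAV12N-3 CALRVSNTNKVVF TRAJ34: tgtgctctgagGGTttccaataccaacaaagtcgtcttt
TRAV12N-3 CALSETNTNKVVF TRAJ34: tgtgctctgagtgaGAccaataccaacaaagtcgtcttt
TRAV12N-3 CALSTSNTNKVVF TRAJ34: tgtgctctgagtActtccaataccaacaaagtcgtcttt
TRAV4N-3 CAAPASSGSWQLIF TRAJ22: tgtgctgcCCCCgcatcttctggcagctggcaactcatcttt
TRAV4D-3 TRAJ32, first of the pair: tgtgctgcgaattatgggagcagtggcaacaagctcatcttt
TRAV4D-3 TRAJ32, second of the pair: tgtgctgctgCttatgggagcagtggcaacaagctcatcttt
TRAV4D-3 TRAJ17: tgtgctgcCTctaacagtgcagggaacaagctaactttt
TRAV14-3 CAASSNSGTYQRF TRAJ13: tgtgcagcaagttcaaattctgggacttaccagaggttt

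Clonotypes were counted by unique molecular identifiers (UMIs), each standing for 1 TCRα mRNA molecule, so more cells and more mRNA per cell cannot be told apart. The libraries held 15977 to 25980 UMIs in wt, 7625 to 18652 in Il2° and 10751 to 18589 in Il15°, and no 2 libraries were duplicates of each other. Segment pairs that mark innate-like T cells with invariant α chains were used by no member. The pair of natural killer T cells (TRAV11 or TRAV11D with TRAJ18) took 0.00538 to 0.109% of the UMIs of a library, and the pair of mucosal-associated invariant T cells (TRAV1 with TRAJ33) took 0 to 0.236%.

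No member took more than a mean of 0.247% of the UMIs in wt, and the summed share of the members was lower in Il2° mice, as their choice makes likely. They summed to 3.02, 3.02, 3.60 and 2.99% of the UMIs in the 4 wt libraries, to 2.94, 3.36, 3.67 and 3.35% in the Il15° libraries and to 1.74, 1.46, 1.65 and 1.68% in the Il2° libraries. The wt and Il15° libraries overlapped, and each Il2° library lay below all of them. The 95% Wilson interval, which covers counting error only, ran from 2.75 to 3.26% in the lowest wt library and from 1.53 to 1.98% in the highest Il2° library. Because absence from Il2° libraries chose the members, the Il2° values are a description without a test. The gap between these intervals was favoured by that choice and is no test of a lower Il2° level. The clonotypes public in all 3 genotypes summed to 27.8 ± 0.6% in wt, 27.8 ± 1.8% in Il2° and 28.7 ± 0.8% in Il15° (SD, n = 4).

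**Figure D1:**
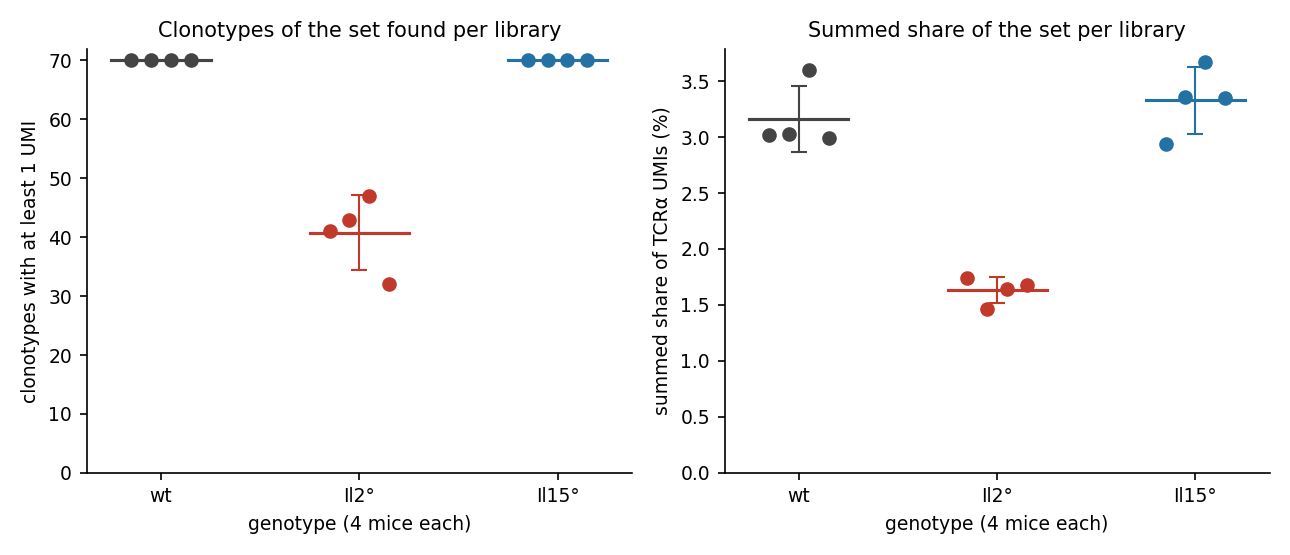
Number of the 70 clonotypes found with at least 1 UMI (left) and their summed share of TCRα UMIs in percent (right) in each library. Points are mice, lines are means and bars are SD (n = 4). All 70 were found in every wt and Il15° library by the rule, and 32 to 47 in the Il2° libraries.

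Il15° and wt were treated alike by the rule, which kept only clonotypes found in all 8 of these libraries, so that similar summed shares are partly built in. The median share of the 111 clonotypes public in wt and Il2° but not in Il15° was 0.0387% in wt and 0.0205% in Il15°. For the members the summed share averaged 3.33 ± 0.30% in Il15° and 3.16 ± 0.29% in wt (SD, n = 4). The difference of 0.170 percentage points did not pass an exact 2-sided permutation test (p = 0.429, Benjamini-Hochberg adjusted 0.857 over 3 comparisons, smallest possible p 0.0286). It was 0.422 percentage points with copies of a V merged by name (exact permutation p = 0.0857), 0.381 when presence meant at least 2 UMIs (exact permutation p = 0.286), and 0.0556 without Il15° replicate 3 to 0.317 without wt replicate 3, still without passing. The UMI-weighted mean CDR3 length of the members was 13.13 ± 0.11 amino acids in wt and 13.11 ± 0.14 in Il15° (exact permutation p = 0.743). The UMI-weighted mean number of bases between V and J was 1.79 ± 0.08 in wt and 1.80 ± 0.11 in Il15° (exact permutation p = 0.857). None of the 3 differences passed the test.

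Detection in the Il2° libraries was graded. Il2° replicates 1 to 4 held 41, 43, 47 and 32 of the members. Of the 70, 39 were found in 3 Il2° libraries, 16 in 2, 14 in 1 and 1 in none. The median wt share over these classes was 0.0370%, 0.0236%, 0.0204% and 0.00907%, and the median Il15° share was 0.0359%, 0.0364%, 0.0319% and 0.00869%. Of the classes with more than 1 member, those found in fewer Il2° libraries thus had lower median shares in wt, whereas in Il15° the medians were similar. Among the 39 missing from a single Il2° library, the library without them was replicate 1 for 12, replicate 2 for 7, replicate 3 for 5 and replicate 4 for 15. Replicate 4 had the fewest UMIs of all libraries, 7625, and missed the most members, 38.

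How far absence reaches below wt and Il15° levels depends on depth. A count of 0 allows a share of up to 3 UMIs of the library, that is 0.0226, 0.0161, 0.0195 and 0.0393% in Il2° replicates 1 to 4. Over the 70 members there were 117 absences from an Il2° library. In 68 of them (58.1%) the mean share of the clonotype over wt and Il15° libraries was above that limit. These were 20 of 29 absences in Il2° replicate 1, 22 of 27 in replicate 2, 18 of 23 in replicate 3 and 8 of 38 in replicate 4. In the remaining 49 it was at or below the limit. These absences were among those that chose the members, and the limit covers counting error only, so the counts describe depth and are no test of a lower Il2° level. At the wt and Il15° share, the median absence would have had 4.08 UMIs, 44 absences would have had 5 or more, and 3 fewer than 1.

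**Figure D2:**
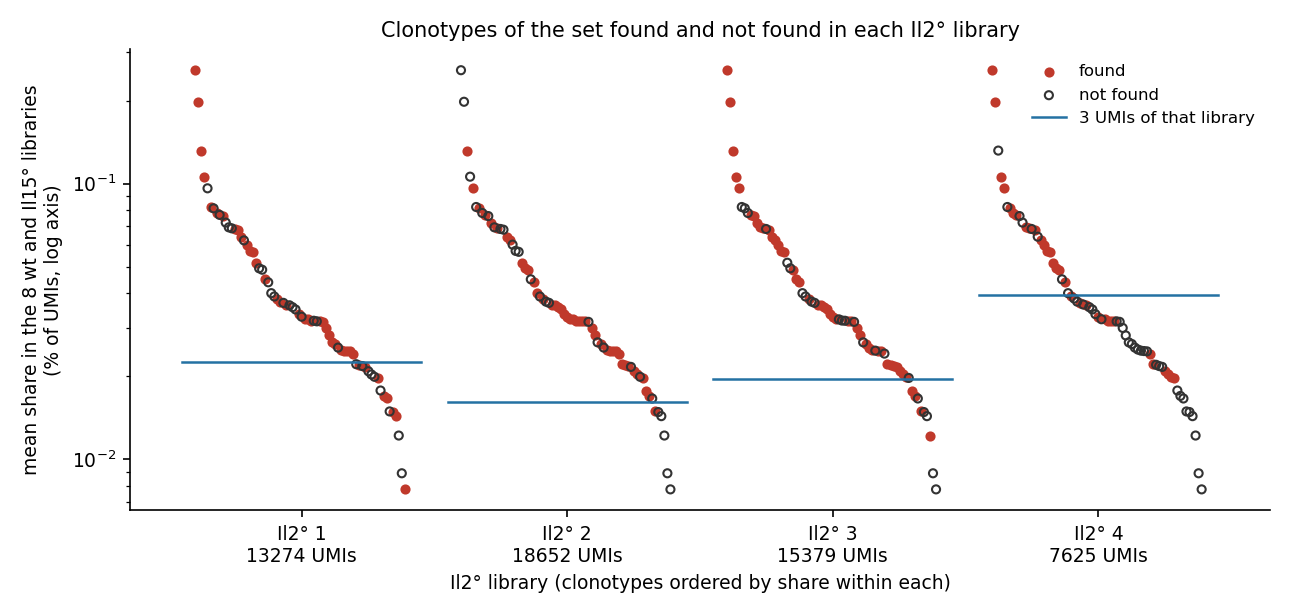
Mean share of each of the 70 clonotypes over the 8 wt and Il15° libraries (percent of UMIs, log axis), drawn once per Il2° library and ordered by share. Filled red points were found in that Il2° library, open points were not, and the blue line is the share that 3 UMIs make. Open points lie above the line for 20, 22, 18 and 8 clonotypes in Il2° replicates 1 to 4.

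The rule also stood close to its limit on the other side. In 43 of the 70 members at least 1 wt or Il15° library held a single UMI, against 42 of the 178 clonotypes public in all 3 genotypes. Only 5 members had 5 or more UMIs in all 8 wt and Il15° libraries. The median share of a member was 0.0318% in wt, 0.0339% in Il15° and 0.0166% in Il2°. For the clonotypes public in all 3 genotypes the medians were 0.0909, 0.0889 and 0.0891%, so the members were the rarer ones in wt and Il15° too. The Il2° mean was below the wt mean for 57 of 70 members and below the Il15° mean for 55, and for 9 members it was above both.

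**Figure D3:**
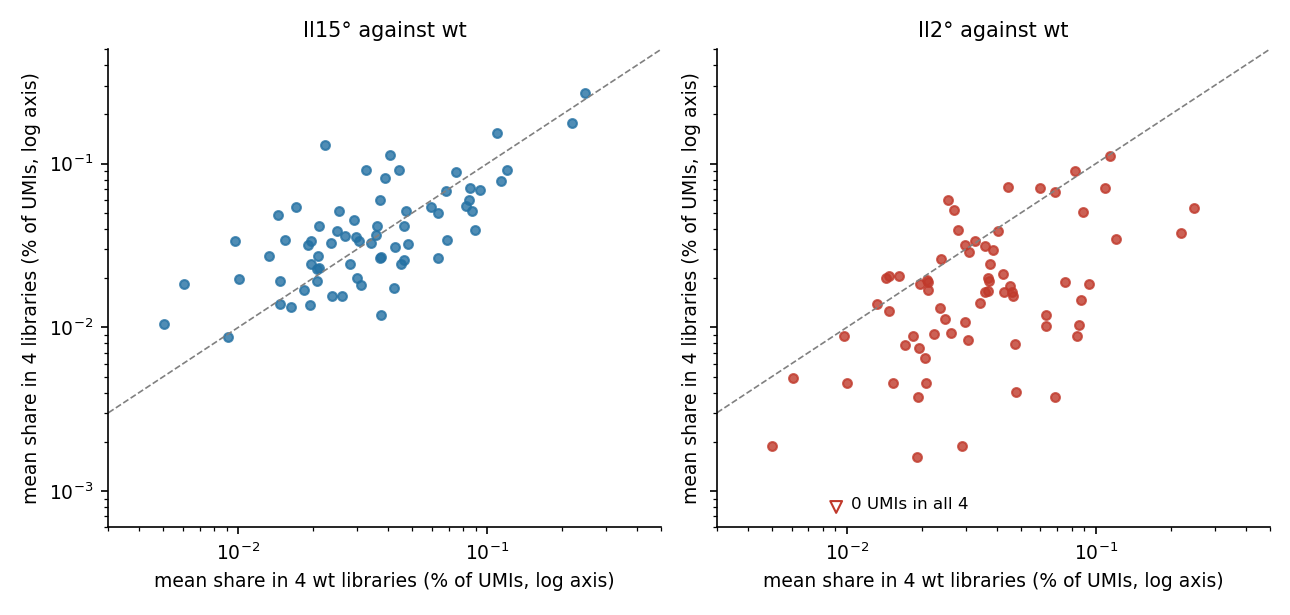
Mean share of each of the 70 clonotypes in Il15° (left) and Il2° (right) against its mean share in wt, each over 4 libraries (percent of UMIs, log axes). The dashed line marks equal shares and the triangle is the clonotype with 0 UMIs in all Il2° libraries, placed at the lower edge. In the Il15° panel the points lie around the line, and in the Il2° panel 57 of 70 lie below it, which the choice of the clonotypes favours.

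The member missing from all Il2° libraries was TRAV7-4 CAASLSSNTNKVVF TRAJ34. It had 1, 2, 2 and 2 UMIs in the wt libraries, 1, 2, 1 and 1 in the Il15° libraries and 0 in each Il2° library. Over each genotype it took 0.00841% of the pooled wt UMIs and 0.00818% of the pooled Il15° UMIs, whereas 3 UMIs would make 0.00546% of the 54930 Il2° UMIs. These shares rest on 7 and 5 UMIs in all and were part of the rule, so no fold is given. In the Il2° libraries 3 other clonotypes with the same V, up to copies of the segment, and the same J differed from it by a single residue.

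This member was 1 of 5 that used TRAJ34, and under their own V names the TRAJ34 members were found in Il2° replicate 1 or not at all. In only 1 of their 16 absences was the wt and Il15° share above the limit of 3 UMIs. Together they took 0.0645 ± 0.0164% of the UMIs in wt, 0.0602 ± 0.0214% in Il15° and 0.0471 ± 0.0942% in Il2° (SD, n = 4), the Il2° UMIs all being in replicate 1. TRAV12N-3 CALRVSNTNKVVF TRAJ34 had 4, 9, 1 and 1 UMIs in wt, 4, 1, 2 and 1 in Il15°, and 11, 0, 0 and 0 in Il2°. TRAV12N-3 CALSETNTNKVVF TRAJ34 had 3, 7, 2 and 1 in wt, 1, 1, 4 and 1 in Il15°, and also 11, 0, 0 and 0 in Il2°. The second TRAV7-4 member with TRAJ34 had 2, 0, 0 and 0 in Il2°, and TRAV12N-3 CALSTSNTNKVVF TRAJ34 had 1, 0, 0 and 0, after 1 UMI in each wt library. With the copy TRAV7D-4, the CDR3 and J of the second TRAV7-4 member had 0, 3, 0 and 0 UMIs in Il2°. As the sequences above show, the 5 junctions end in the same run of TRAJ34 bases and differ upstream of it. TRAJ34 itself was used in each genotype: outside the members it took 2.59 to 3.38% of the UMIs in wt, 2.56 to 2.86% in Il2° and 2.62 to 3.11% in Il15°. Other members of this kind were more abundant. The TRAV4N-3 member with TRAJ12 had 14, 21, 18 and 8 UMIs in wt, 9, 13, 9 and 24 in Il15°, and 10, 0, 0 and 0 in Il2°. Its CDR3 and J were also found with the copy TRAV4D-3, at 0, 0, 2 and 3 UMIs in Il2°. TRAV7-2 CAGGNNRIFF TRAJ31 had 16, 20, 14 and 7 in wt, 2, 10, 17 and 6 in Il15°, and 2, 0, 0 and 0 in Il2°. Of the 14 members found in a single Il2° library, 9 were found in replicate 1, 1 in replicate 2, 2 in replicate 3 and 2 in replicate 4. The number missing from all Il2° libraries accordingly rested on replicate 1: without it, 10 clonotypes were missing from the remaining 3.

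The 10 members with the highest mean share in wt show how uneven the Il2° libraries were. TRAV4N-3 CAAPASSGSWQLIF TRAJ22 was the most abundant, with 45, 19, 56 and 67 UMIs in wt and 44, 45, 28 and 45 in Il15°. In Il2° it had 12, 0, 13 and 3 UMIs, and its mean share was 0.247 ± 0.146% in wt, 0.268 ± 0.040% in Il15° and 0.0536 ± 0.0424% in Il2° (SD, n = 4). TRAV4D-3 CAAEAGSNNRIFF TRAJ31 had 46, 50, 52 and 29 UMIs in wt, 32, 24, 8 and 52 in Il15°, and 1, 0, 14 and 4 in Il2°. Both had at least 8 UMIs in each wt and Il15° library and were undetected in the deepest Il2° library, replicate 2.

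The pair with TRAJ32 differed by a single residue. The first TRAV4D-3 clonotype of the pair had 19, 16, 37 and 19 UMIs in wt, 9, 10, 10 and 28 in Il15°, and 2, 0, 5 and 7 in Il2°. The second had 14, 30, 17 and 9 in wt, 19, 10, 2 and 8 in Il15°, and 0, 3, 3 and 0 in Il2°. They were missing from 1 and from 2 Il2° libraries, and the libraries without them were not the same.

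The other 6 fell on both sides, with low counts in each Il2° library or with high counts in some. TRAV4D-3 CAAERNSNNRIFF TRAJ31 had 5, 4, 25 and 26 UMIs in wt, 10, 10, 8 and 15 in Il15°, and 2, 0, 0 and 2 in Il2°. TRAV7-2 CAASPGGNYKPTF TRAJ6 had 34, 12, 7 and 26 in wt, 11, 4, 13 and 12 in Il15°, and 0, 4, 0 and 4 in Il2°. For these 2 clonotypes every wt and Il15° library held at least as many UMIs as any Il2° library, although 4 UMIs made 0.0525% of the small Il2° replicate 4. TRAV12D-2 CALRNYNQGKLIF TRAJ23 had 17, 10, 22 and 18 UMIs in wt, 16, 1, 2 and 17 in Il15°, and 0, 0, 7 and 1 in Il2°, so that its Il15° and Il2° counts overlapped.

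The remaining 3 reached wt counts in some Il2° libraries. TRAV13N-2 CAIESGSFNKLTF TRAJ4 had 30, 21, 21 and 21 UMIs in wt, 14, 13, 3 and 21 in Il15°, and 0, 24, 23 and 13 in Il2°. TRAV7-3 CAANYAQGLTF TRAJ26 had 28, 42, 6 and 20 in wt, 20, 9, 22 and 44 in Il15°, and 10, 32, 6 and 0 in Il2°. TRAV12N-3 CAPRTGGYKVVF TRAJ12 had 29, 23, 9 and 16 in wt, 9, 4, 2 and 11 in Il15°, and 8, 18, 7 and 0 in Il2°. Each of these was a member because of a single Il2° library, replicate 1 for the first and replicate 4 for the others. In that library the CDR3 and J of the first had 3 UMIs with the copy TRAV13-2. Those of the second had 3 with the copy TRAV7D-3, and those of the third had none with a copy of its V. The mean share of the TRAV13N-2 clonotype was 0.114 ± 0.019% in wt and 0.112 ± 0.077% in Il2° (SD, n = 4).

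Il2° levels just inside and just outside the threshold overlapped. Besides TRAV13N-2 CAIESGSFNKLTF TRAJ4, the members with the highest Il2° means were the TRAV4D-3 TRAJ17 clonotype shown above, with 0, 4, 4 and 24 UMIs in Il2°, and the TRAV14-1 TRAJ12 clonotype, with 8, 0, 19 and 8. Just outside, among clonotypes public in all 3 genotypes, TRAV4D-3 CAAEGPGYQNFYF TRAJ49 had 1, 1, 3 and 1 UMIs in Il2°, against 8, 19, 19 and 22 in wt and 8, 7, 1 and 15 in Il15°. TRAV4D-4 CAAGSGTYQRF TRAJ13 had 3, 3, 1 and 1 in Il2°, and a TRAV12N-3 clonotype with TRAJ12 had 1, 3, 3 and 1. The Il2° mean share was 0.0114 ± 0.0063% for the TRAJ49 clonotype, which was not a member, and 0.0906 ± 0.150% for the TRAJ17 clonotype, which was (SD, n = 4).

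Whether naming of the V segment took part in the absences was not tested. The mouse V locus holds near-identical copies of many segments, with D or N in their names, and the counts of such clonotypes are uncertain where reads could be assigned to either copy. In 34 of the 117 absences (29.1%, 28 members) the same CDR3 and J were found in that Il2° library under another V name, in 19 of them (14 members) under a copy of the same V. The CDR3 of TRAV4N-3 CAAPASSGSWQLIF TRAJ22 was found with TRAV4D-3 as well, at 28, 27, 28 and 27 UMIs in Il2°, including the library where the TRAV4N-3 form was not found. Under that TRAV4D-3 name it had 57, 58, 50 and 81 UMIs in wt, and 83, 3, 52 and 82 in Il15°.

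Other members showed the same split between names. The CDR3 of TRAV3D-3 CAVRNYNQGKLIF TRAJ23, a member with 0, 0, 0 and 5 UMIs in Il2°, was found with TRAV3-3 at 11, 13, 7 and 0 UMIs there. The CDR3 of the TRAV4D-3 TRAJ17 member was found with TRAV4N-3 at 24, 18, 33 and 6 UMIs. That of the TRAV14-1 TRAJ12 member was found with TRAV14N-2, by name not a copy of TRAV14-1, at 0, 31, 6 and 16. For these members the same CDR3 and J were present under the other V in each Il2° library that lacked the member. With copies of a V merged by name, 78 clonotypes met the rule, and with V ignored 83 did, 1 of them missing from all Il2° libraries in either case.

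The members used 23 V and 27 J segments, but a few V segments held most of them. V segments with at least 4 members were TRAV12N-3 with 18 (25.7%), TRAV4D-3 with 12 (17.1%), TRAV7-4 with 6 (8.57%), and TRAV14-3 and TRAV7-2 with 4 each (5.71%), which together held 44 of the 70. Among the 178 clonotypes public in all 3 genotypes the shares of these segments were 12.4, 16.3, 2.81, 0.562 and 8.99%. Among the 111 clonotypes public in wt and Il2° but not in Il15° they were 8.11, 18.9, 0, 0 and 8.11%. TRAV12N-3, TRAV7-4 and TRAV14-3 thus held a larger part of the members than of either other public set, TRAV4D-3 held a similar part and TRAV7-2 a smaller one. These are counts of clonotypes and were not tested, since clonotypes are not replicates.

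**Figure D4:**
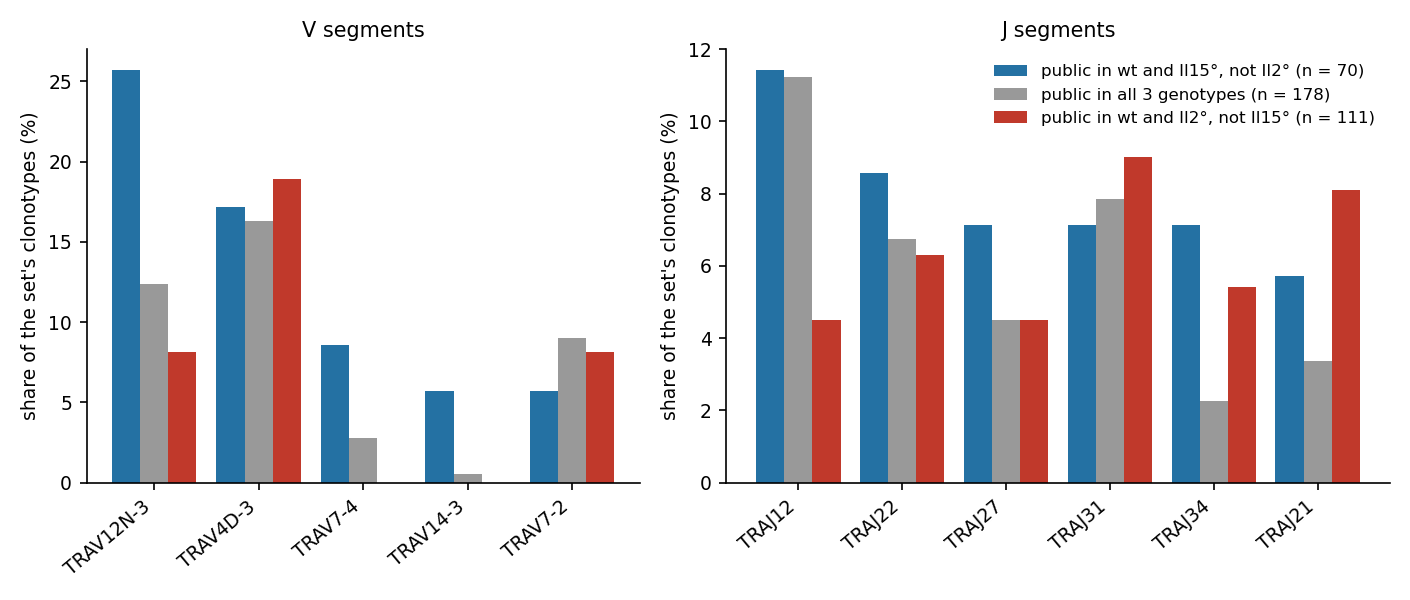
Share of clonotypes (percent of the set, bars from 0) using each V segment (left) and J segment (right) that at least 4 of the 70 clonotypes used, for 3 sets of public clonotypes. TRAV12N-3 held 25.7% of the 70 clonotypes, 12.4% of those public in all 3 genotypes and 8.11% of those public in wt and Il2° but not in Il15°.

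All 23 V and 27 J segments lie on chromosome 14 (GRCm38, GENCODE M21, plus strand). The V segments used span chr14:52580665-53807115 and the J segments chr14:54157280-54216353. TRAV12N-3 is annotated at chr14:53240745-53241244, TRAV4D-3 at chr14:52899969-52900470, TRAV7-4 at chr14:53461099-53461738, TRAV14-3 at chr14:53763173-53763694 and TRAV7-2 at chr14:53390635-53391142. These 5 segments are spread over the region and do not form a block. TRAJ34 is annotated at chr14:54184699-54184756.

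The leading V segments were not lacking from the same Il2° libraries. The 18 TRAV12N-3 members were missing 3, 5, 6 and 14 times from Il2° replicates 1 to 4, and the 12 TRAV4D-3 members 8, 6, 1 and 2 times. Replicate 4, the shallowest, thus accounted for 14 of the 28 TRAV12N-3 absences, and replicates 1 and 2 for 14 of the 17 TRAV4D-3 absences. The TRAV4D-3 members summed to 0.845 ± 0.251% of the UMIs in wt, 0.694 ± 0.180% in Il15° and 0.298 ± 0.284% in Il2°. The TRAV12N-3 members summed to 0.500 ± 0.092, 0.439 ± 0.145 and 0.354 ± 0.224% (SD, n = 4).

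The smaller V groups showed the same unevenness. The 6 TRAV7-4 members were missing 1, 4, 4 and 5 times from Il2° replicates 1 to 4 and summed to 0.168 ± 0.049% in wt, 0.193 ± 0.026% in Il15° and 0.113 ± 0.119% in Il2°. The 4 TRAV14-3 members were missing 1, 3, 1 and 3 times and summed to 0.154 ± 0.021, 0.239 ± 0.102 and 0.0956 ± 0.0272%. The 4 TRAV7-2 members were missing 3, 1, 2 and 1 times and summed to 0.208 ± 0.028, 0.256 ± 0.085 and 0.0697 ± 0.0489% (SD, n = 4). In the TRAV7-4 group the Il2° mean rested on replicate 1, where TRAV7-4 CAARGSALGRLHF TRAJ18 alone had 25 UMIs, after 24, 19, 7 and 4 in wt. This clonotype uses the J segment of the natural killer T cell chain but not its V segment.

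Use of these V segments by clonotypes outside the members did not follow a single order. For TRAV4D-3 it was 17.4, 17.1, 20.5 and 17.7% of the UMIs in wt, 13.6, 10.4, 14.0 and 12.9% in Il2°, and 18.3, 13.7, 15.3 and 18.7% in Il15°. The Il2° and wt libraries did not overlap, whereas the lowest Il15° library lay within the Il2° range. Outside use of TRAV12N-3 was 3.95 to 5.87% in wt, 3.49 to 5.36% in Il2° and 5.05 to 5.93% in Il15°, and these ranges overlapped. For TRAV7-2 it was higher in Il2°, at 5.83 to 8.55%, than in wt, at 4.95 to 5.54%, without overlap, and 4.52 to 6.23% in Il15°. For TRAV14-3 it was 0.451 to 0.851% in wt, 0.618 to 0.881% in Il2° and 0.753 to 1.32% in Il15°, and for TRAV7-4 it was 1.33 to 1.91%, 0.852 to 1.91% and 0.939 to 1.76%. Lack of overlap between wt and Il2° was not particular to the V segments with many members. Outside use of TRAV8D-2 was 0.394 to 0.539% in wt and 0.595 to 1.11% in Il2°. That of TRAV6N-6 was 0.476 to 0.519% in wt and 0.603 to 0.722% in Il2°. Such cases were not counted over all V segments. The part of segment use in the absences was not tested.

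J segments were spread more evenly. TRAJ12 was used by 8 members (11.4%), TRAJ22 by 6 (8.57%), TRAJ27, TRAJ31 and TRAJ34 by 5 each (7.14%) and TRAJ21 by 4 (5.71%), 33 members in all. TRAJ34 was used by 2.25% of the clonotypes public in all 3 genotypes and by 5.41% of those public in wt and Il2° but not in Il15°. TRAJ31 members summed to 0.483 ± 0.158% in wt, 0.384 ± 0.064% in Il15° and 0.0786 ± 0.0506% in Il2° (SD, n = 4). TRAJ27 members summed to 0.155 ± 0.052, 0.249 ± 0.132 and 0.0991 ± 0.0141%.

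The CDR3s of the members were of ordinary length. The median was 13 amino acids and the range 9 to 15, with 26 members of 13 and 29 of 14 amino acids, so that 78.6% had 1 of these lengths against 68.5% of the clonotypes public in all 3 genotypes. The UMI-weighted mean length in the 8 wt and Il15° libraries was 13.12 ± 0.12 for members and 13.13 ± 0.05 for the clonotypes public in all 3 genotypes (SD, n = 8). The members were shorter in 4 libraries and longer in 4 (difference -0.0160 amino acids, exact 2-sided sign-flip permutation p = 0.781). Of the central residues, from the fourth position to the fourth from the end, 12.9% were hydrophobic (I, L, V, F, M, W, Y or C) in the members and 13.0% in the clonotypes public in all 3 genotypes. Charged residues (D, E, K, R or H) made up 17.3% and 19.7%, and 13 members (18.6%) against 10.7% had no charged central residue. Such a residue was also lacking in 16.2% of the clonotypes public in wt and Il2° but not in Il15°, and in 7.27% of those public in wt only. The residue shares were not tested.

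The junctions of the members held more bases between V and J than those of the clonotypes public in all 3 genotypes, a feature that the rule did not use. The UMI-weighted mean was 1.84, 1.87, 1.73 and 1.71 bases in the wt libraries and 1.88, 1.90, 1.78 and 1.65 in the Il15° libraries for the members, and 1.34, 1.34, 1.30, 1.38, 1.26, 1.30, 1.23 and 1.24 for the other set. The difference of 0.495 bases was above 0 in 8 of 8 libraries (exact 2-sided sign-flip permutation p = 0.00781, the smallest possible, adjusted 0.0156 over 2 comparisons). The 8 libraries hold the same clonotypes, so this p covers the spread between mice and not the choice of clonotypes. Without the member highest in wt, TRAV4N-3 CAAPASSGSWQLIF TRAJ22, whose main sequence has 4 such bases, the difference was 0.348 bases and above 0 in 8 of 8 libraries. The difference was not seen at low abundance. Among clonotypes with a mean share under 0.05% over the wt and Il15° libraries, 49 members had 1.99 ± 0.10 bases and 36 of the other set had 2.07 ± 0.22 (SD, n = 8). There the members were higher in 2 of 8 libraries and the difference was -0.0820 bases (exact sign-flip permutation p = 0.438), whereas at or above 0.05% 21 members had 1.66 ± 0.14 bases and 142 of the other set 1.26 ± 0.06 (SD, n = 8). There the difference was 0.399 bases and above 0 in 8 of 8 libraries (exact sign-flip permutation p = 0.00781). This range has no upper limit and the sets were not matched for share within it, so abundance was not held equal. The comparisons by abundance and without 1 member were added after the data were seen.

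**Figure D5:**
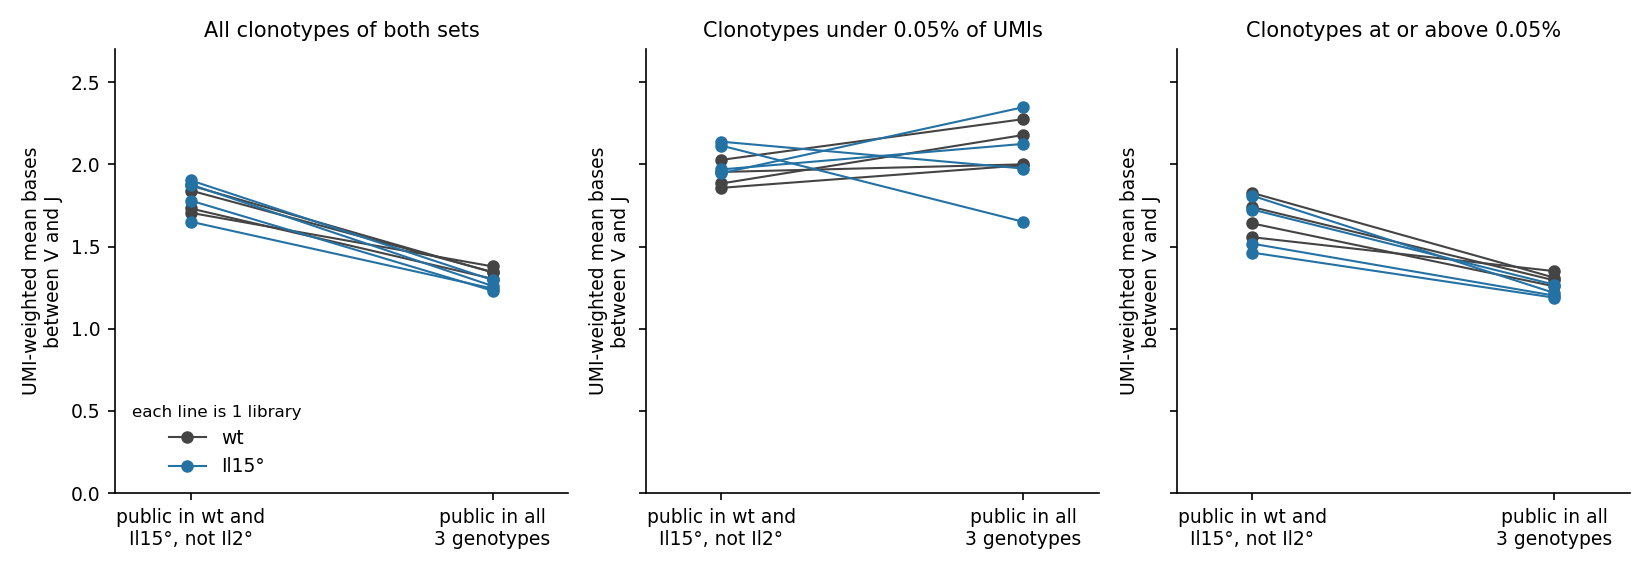
UMI-weighted mean number of bases between V and J in each wt and Il15° library, for the 70 clonotypes and for the 178 public in all 3 genotypes (left), and for those of both sets with a mean share under 0.05% of UMIs (middle) or at or above it (right). Lines join the values of 1 library. On the left and on the right all 8 lines fall, and in the middle 2 of 8 do.

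Counting each clonotype once by its main sequence, 20 members (28.6%) had no base between V and J, as the TRAJ13 and the first TRAJ32 sequence above do, against 68 of 178 (38.2%). The median was 1.5 bases against 1. The mean was 1.76 bases for the members and 1.43 for the clonotypes public in all 3 genotypes, but 1.68 for the 111 public in wt and Il2° but not in Il15° and 1.90 for the 289 public in wt only, so the members lay between other public sets. A member was encoded by a median of 4 different nucleotide sequences in the wt and Il15° libraries and by up to 14. The median was 6 (up to 22) for the clonotypes public in all 3 genotypes. It was also 4 (up to 11) for the 111 public in wt and Il2° but not in Il15°, and 3 (up to 8) for those public in wt only. Abundance was not held equal between these sets. Just 2 members had a single nucleotide sequence, which were TRAV17 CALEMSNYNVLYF TRAJ21 and TRAV4D-3 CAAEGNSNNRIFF TRAJ31, and for 21 members the main sequence was found in all 8 libraries. At the other end, TRAV4D-3 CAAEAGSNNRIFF TRAJ31 had 14 sequences. Of the 70 members, 3 were not productive, their CDR3 being out of frame.

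Relatives of the members were present without IL-2. For 64 of 70 members (91.4%) the Il2° libraries held at least 1 clonotype with the same V, copies merged, the same J and a CDR3 that differed by a single residue. The same held for 93.3% of the clonotypes public in all 3 genotypes. Within the members, 8 pairs shared the J and differed by a single residue, 5 of them with the same V. Besides the TRAJ32 pair these included TRAV4D-3 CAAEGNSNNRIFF and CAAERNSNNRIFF with TRAJ31, and TRAV4D-4 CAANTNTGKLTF and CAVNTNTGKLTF with TRAJ27.

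For single members, Il15° was compared with wt by the quasi-likelihood test of edgeR, fitted to the 478 clonotypes that reached 5 UMIs in 4 or more of these libraries. Of the members, 44 could be tested and 26 were too rare. No clonotype passed a Benjamini-Hochberg adjusted p of 0.05, which is 0% of those tested and 0 of the members. The rule required the members in all 8 of these libraries, so large differences among them were partly screened out beforehand. At an unadjusted p under 0.05 there were 20 clonotypes (4.18% of those tested), 1 of them a member. Il15° shares were all above wt shares for 1.88% of the clonotypes tested and for 2 members, and all below for 3.56% and for 2 members. The members' log2 fold changes had a median of -0.09 and a range of -1.33 to 2.53, beside a median of -0.17 over all clonotypes tested. DESeq2 called 5 of the 478, 1 of them a member, and limma called 3, none of them members.

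The member with the largest change was TRAV14-3 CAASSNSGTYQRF TRAJ13, with 3, 1, 9 and 3 UMIs in wt and 13, 22, 20 and 19 in Il15°. Its mean share was 0.0223 ± 0.0233% in wt and 0.130 ± 0.052% in Il15° (SD, n = 4). Every Il15° library lay above every wt library, and the log2 fold change was 2.53 (Benjamini-Hochberg adjusted p = 0.390 by edgeR, the smallest among the members). It was the member that DESeq2 called, with a log2 fold change of 2.71 and a Benjamini-Hochberg adjusted p of 0.0485. In Il2° it had 4, 0, 1 and 0 UMIs. With the copy TRAV14D-3/DV8 this CDR3 and J had 18, 16, 0 and 11 UMIs in wt and 12, 0, 0 and 0 in Il15°. Under that name the Il2° libraries held 0, 9, 11 and 8. The change above therefore holds for a single V name, and the names were not tested together. TRAV7-2 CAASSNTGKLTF TRAJ27 also had higher shares in each Il15° library, with 8, 14, 2 and 5 UMIs in wt and 13, 12, 9 and 23 in Il15°. In the other direction, TRAV14-3 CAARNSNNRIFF TRAJ31 had 18, 15, 12 and 8 in wt and 5, 6, 2 and 3 in Il15°, and TRAV12N-3 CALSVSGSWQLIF TRAJ22 had 12, 11, 5 and 8 in wt and 5, 1, 2 and 3 in Il15°. TRAV4N-3 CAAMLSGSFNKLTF TRAJ4, among the highest in Il15°, had 18, 9, 7 and 2 in wt, 16, 21, 17 and 10 in Il15° and 0, 18, 1 and 4 in Il2°, and its wt and Il15° shares overlapped. Counts of a clonotype varied widely between mice of a genotype, with a common biological coefficient of variation of 0.735 in the edgeR fit.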

How the data were processed

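TCRα transcripts were sequenced from 12 libraries, 1 per mouse (4 wt, 4 Il2°, 4 Il15°), grouped by their labels. The authors filtered reads by quality with pRESTO, built a consensus per UMI, aligned and assembled clones with MiXCR against the Tcra region (build mm10 per the submitters' processing notes), and wrote tables in VDJtools format. In the deposited tables the count is a whole number of UMIs without normalization (199248 in all), and the deposited fraction, that count over the library total, was not used. Percentages were computed from the counts. UMIs with few reads were removed by the authors, and absences depend on this and on depth. The last V and first J base of the CDR3 are the authors' assignments: the V part matched the GENCODE M21 transcript exactly for 58 of 70 members and the J part for 56.

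The members and lists were chosen with earlier results of these data known. Detection in all 12 libraries chose the members. No test compared Il2° with another genotype, and the tests used wt and Il15° libraries, in which presence was required. Groups were compared with exact 2-sided permutation tests, sets within libraries with exact sign-flip tests, and clonotypes with edgeR 4.0.16 (TMM, a minimum of 5 UMIs in 4 libraries, Benjamini-Hochberg adjustment). Alternatives used DESeq2 1.42.0 and limma 3.58.1 on log2(percent + 0.01) in R 4.3.3, other definitions of a clonotype, depth, weights and each library left out. The alternatives for the bases between V and J (exact germline ends, rarer or more abundant clonotypes, 1 member left out) were added after seeing the data. The tests were checked on simulated data (Python 3.11.15, numpy 2.4.6, pandas 2.3.3, scipy 1.17.1). Same-numbered wt and Il15° mice are different animals, and their deviations correlated by -0.0909 to 0.000981 over 248 clonotypes, so the numbers were not taken as pairs. Intervals and the limit of 3 UMIs cover counting error only. Named clonotypes were those missing from all Il2° libraries, the 10 highest in wt, the next 3 in Il15°, and 3 on either side of the threshold, and named segments had at least 4 members. Others named in the report (the TRAJ34 members and others found in a single Il2° library, the TRAJ18 member, those with V copies, with 1 nucleotide sequence, neighbouring pairs or non-overlapping Il15° and wt shares) were chosen after their values were seen.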

Additional observations from a re-analysis of the deposited data

Results flagged for a closer look

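A single library stood apart from the other 3 of its genotype in 3 of the 66 sets of 4 values examined, and chance alone gives such a flag in about 1 of 20. The summed share of the members in wt was flagged because wt replicate 3, at 3.60%, lay above the others, at 2.99 to 3.02% (gap over range 0.953). The TRAV4D-3 TRAJ17 member was flagged in Il2°, where replicate 4 held 24 UMIs and the others 0, 4 and 4 (0.917), and in Il15°, where replicate 1 held 27 UMIs and the others 2 to 5 (0.849). In the edgeR fit this clonotype had a log2 difference of -0.69 between Il15° and wt with a Benjamini-Hochberg adjusted p of 0.982.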

How the results depend on the processing

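The number of members was 50 to 83 under other definitions of a clonotype, 49 when presence meant at least 2 UMIs, 67 in frame, and an expected 40.6 with all libraries thinned to 7625 UMIs. In the thinned libraries the members were 24.3% of the clonotypes public in wt and Il15°. Leaving out 1 library gave 55 to 105, the latter without Il15° replicate 3. The number missing from all Il2° libraries was 0 with CDR3 nucleotides, an expected 0.571 after thinning, and 1 to 10 with 1 library left out: 10 without Il2° replicate 1, 4 without Il15° replicate 3, 3 without Il2° replicate 3 or 4, and 2 without wt replicate 2 or 3, Il2° replicate 2, or Il15° replicate 1 or 2.

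The summed share difference between Il15° and wt was 0.422 with copies of a V merged, 0.381 at 2 UMIs and 0.0556 to 0.317 with 1 library left out, passing in none. Other differences that did not pass a test changed sign under some settings. The Il15° minus wt difference in length was 0.0110 with square-root weights and -0.0731 to 0.0237 with 1 library left out, and that in bases between V and J was -0.00936 and -0.0178 to 0.0660. Members minus clonotypes public in all 3 genotypes differed in length by 0.0703 with each clonotype counted once and by -0.0509 to 0.0125 with 1 library left out. For bases between V and J this difference was 0.330 with each clonotype counted once, 0.445 in wt alone and 0.545 in Il15° alone (exact permutation p = 0.125, the smallest 4 libraries allow), 0.296 with ends by exact match to the annotation, and -0.0820 among clonotypes under 0.05%, where it did not pass, 0.399 at or above 0.05%, and 0.348 without the member highest in wt. With 1 library left out it was 0.477 to 0.519. DESeq2 called 5 clonotypes and 1 member, and limma 3 clonotypes and 0 members. With edgeR, 0 were called with library totals (19 at an unadjusted p under 0.05) and with any library left out (11 to 20). It also called 0 with a minimum of 10 UMIs in all (654 of 2494) and with no filter (743 of 16515). In each of these last 2 settings 1 of the 70 members had an unadjusted p under 0.05, which their required presence in all 8 libraries favours.

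With the replicate number as a block, the summed share difference of 0.170 had an exact sign-flip permutation p = 0.375, and edgeR called 0 (17 at an unadjusted p under 0.05). The replicate block changed no call. Depth limits the absences most in Il2° replicate 4.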
